A study of Mus musculus with 6 samples.

Results

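Imprinted genes are expressed only or mainly from the maternal or the paternal chromosome, in all or some tissues. Here 43 of them, named from their described imprinting in mouse, were followed across the RNA-Seq libraries of NIH3T3 cells. NIH3T3 is an established line of mouse embryonic fibroblasts. Each of the 43 symbols matched 1 gene among the 55401 genes of the count tables. The rule that names the 43 genes uses no measured value, although the genes were chosen with earlier results of these data known.

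Such genes share a way of being controlled. A DNA methylation mark is set in the egg or the sperm, is kept in the body's cells, and leaves the copy from one parent silent. The genes lie in clusters in which a shared control region, and often a long noncoding RNA, governs several neighbours. Many of them act on fetal growth, on the placenta or on the switch of precursor cells to differentiated ones, and embryonic fibroblasts express a part of the set. The counts used here do not separate the parental copies, so every value below is the sum of both.

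The libraries fell into 3 groups of NIH3T3 cells. EV cells carried an empty vector and received DMSO, the vehicle (2 libraries). TC cells expressed TAZ-CAMTA1, a fusion of the transcriptional co-activator TAZ with CAMTA1 that works through the TEAD DNA-binding factors, and received DMSO (1 library). TC + ATA cells expressed the same fusion and received 10 μM aurintricarboxylic acid (ATA), a small molecule tested as a disruptor of TAZ-TEAD binding, for 48 h (3 libraries). TC versus EV asks what the fusion changes, and TC + ATA versus TC asks what ATA changes in cells that carry it. Whether the TC line was a clone or a pool is not given in the sources used here, and nothing says that the libraries of a group came from separate cultures, so the p-values measure only the spread between these libraries.

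Library totals ran from 58471484 to 74413193 counts. Of 10 fibroblast markers 9 had a mean of at least 1 CPM (counts per 1000000 counts after TMM scaling), and they summed to between 12300 and 17500 CPM, whereas the 5 epithelial markers summed to at most 1.28 CPM, the 5 endothelial markers to at most 3.62 CPM and the 5 blood markers to between 4.56 and 9.66 CPM. The 4 muscle markers summed to between 98 and 177 CPM, carried by Ckm and Des. Ptprc, a blood marker, ranged from 0.282 to 5.33 CPM between the TC + ATA libraries. The 2 EV libraries differed more from each other than the TC + ATA libraries did, with a chi-square per degree of freedom of 63 against 6.02 to 6.74 across genes. In bulk RNA, fewer cells that express a gene and less RNA of that gene per cell cannot be told apart.

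Promoter sequences are shown for 6 of the genes described below. Dlk1 and Asb4 had the largest decreases among the genes above 1 CPM, Rian and Peg3 were among the other genes that fell, and Plagl1 and Zrsr1 were the genes that rose. Each window is the RefSeq sequence (GRCm38.p6) from 250 bases before to 50 bases after the transcription start. Capitals mark GGAATG or its complement CATTCC, the core that TEAD factors recognise, searched on both strands.
Dlk1 promoter, chr12:109452573-109452872, plus strand: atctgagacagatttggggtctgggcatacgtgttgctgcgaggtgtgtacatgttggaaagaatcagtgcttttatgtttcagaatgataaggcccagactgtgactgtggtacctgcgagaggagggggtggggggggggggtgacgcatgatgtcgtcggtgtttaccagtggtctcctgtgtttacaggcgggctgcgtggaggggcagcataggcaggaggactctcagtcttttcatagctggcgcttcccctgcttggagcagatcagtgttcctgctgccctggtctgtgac
Asb4 promoter, chr6:5383136-5383435, plus strand: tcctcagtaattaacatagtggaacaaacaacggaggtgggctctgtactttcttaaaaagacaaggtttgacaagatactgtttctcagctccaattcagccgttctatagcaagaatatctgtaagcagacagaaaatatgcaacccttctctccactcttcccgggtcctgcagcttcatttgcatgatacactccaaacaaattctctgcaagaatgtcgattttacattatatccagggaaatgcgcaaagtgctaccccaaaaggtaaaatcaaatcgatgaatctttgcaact
Rian promoter, chr12:109603695-109603994, plus strand: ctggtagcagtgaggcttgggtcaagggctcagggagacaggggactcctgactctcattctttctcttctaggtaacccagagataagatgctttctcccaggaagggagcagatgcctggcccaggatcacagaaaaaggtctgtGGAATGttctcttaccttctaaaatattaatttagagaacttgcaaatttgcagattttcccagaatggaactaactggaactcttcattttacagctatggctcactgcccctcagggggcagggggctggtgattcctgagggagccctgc
Peg3 promoter, chr7:6730370-6730669, minus strand: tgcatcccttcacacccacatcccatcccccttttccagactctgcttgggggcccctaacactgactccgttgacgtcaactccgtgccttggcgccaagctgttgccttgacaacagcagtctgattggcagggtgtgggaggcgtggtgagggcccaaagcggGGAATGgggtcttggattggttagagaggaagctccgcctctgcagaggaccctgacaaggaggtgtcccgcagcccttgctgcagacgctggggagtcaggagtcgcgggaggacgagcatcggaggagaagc
Plagl1 promoter, chr10:13090582-13090881, plus strand: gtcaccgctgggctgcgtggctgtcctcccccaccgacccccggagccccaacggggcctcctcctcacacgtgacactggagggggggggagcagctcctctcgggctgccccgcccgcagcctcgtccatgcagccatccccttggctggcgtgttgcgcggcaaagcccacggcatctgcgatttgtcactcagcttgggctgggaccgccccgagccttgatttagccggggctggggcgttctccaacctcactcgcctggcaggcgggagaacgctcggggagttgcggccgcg
Zrsr1 promoter, chr11:22971755-22972054, plus strand: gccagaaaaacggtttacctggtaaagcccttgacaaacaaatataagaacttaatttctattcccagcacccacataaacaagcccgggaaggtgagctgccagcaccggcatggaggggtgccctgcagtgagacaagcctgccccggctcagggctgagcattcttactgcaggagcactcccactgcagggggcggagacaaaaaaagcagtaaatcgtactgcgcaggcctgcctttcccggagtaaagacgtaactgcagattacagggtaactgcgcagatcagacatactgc

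The Dlk1, Asb4, Plagl1 and Zrsr1 windows held no match, and the Rian and Peg3 windows held 1 each. The Peg3 window overlaps that of Usp29, which is transcribed away from it on the other strand, and the match lies in both. Among all 32851 windows of this length 14.7% held a match. Of the 43 imprinted genes 34 had a window, and 13 of their 57 windows (22.8%) held a match. The 4 genes with a match among the 12 that were lower in TC were Begain, Peg3, Rian and Usp29, and 5 of the 14 genes not called with a window also held it. A match is only a run of letters and not a measured binding site.

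Expression of the set was uneven. Of the 43 genes 27 had a mean of at least 1 CPM and 23 of at least 5 CPM. Dio3, Magel2 and Kcnk9 had no count in any library. Calcr, Phlda2, Slc22a18 and Rasgrf1 had between 0 and 4 counts per library, and these 7 genes did not enter the test. The remaining 36 were tested. Per kilobase of exon, Dlk1 was the highest in each group, at a mean of 320 CPM per kb in EV, 72.4 in TC and 99.5 in TC + ATA. Next in each group were Cd81 (72.4, 56.3 and 72.8 CPM per kb in that order of groups), Slc38a4 (57, 58.7 and 61 CPM per kb) and Grb10 (59.4, 36.7 and 39.8 CPM per kb), whose order differed between groups. Dlk1 encodes a membrane protein with EGF-like repeats that holds back the differentiation of fat cell precursors. Igf2, the fetal growth factor gene for which imprinting is best known, was at 0.0262 to 0.187 CPM. Of its 5723 exon bases 3596 are shared with Gm49394 on the same strand, where reads cannot be ascribed to either gene. H19, the noncoding RNA of the same cluster, was at 5.16 to 8.44 CPM.

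**Figure D1:**
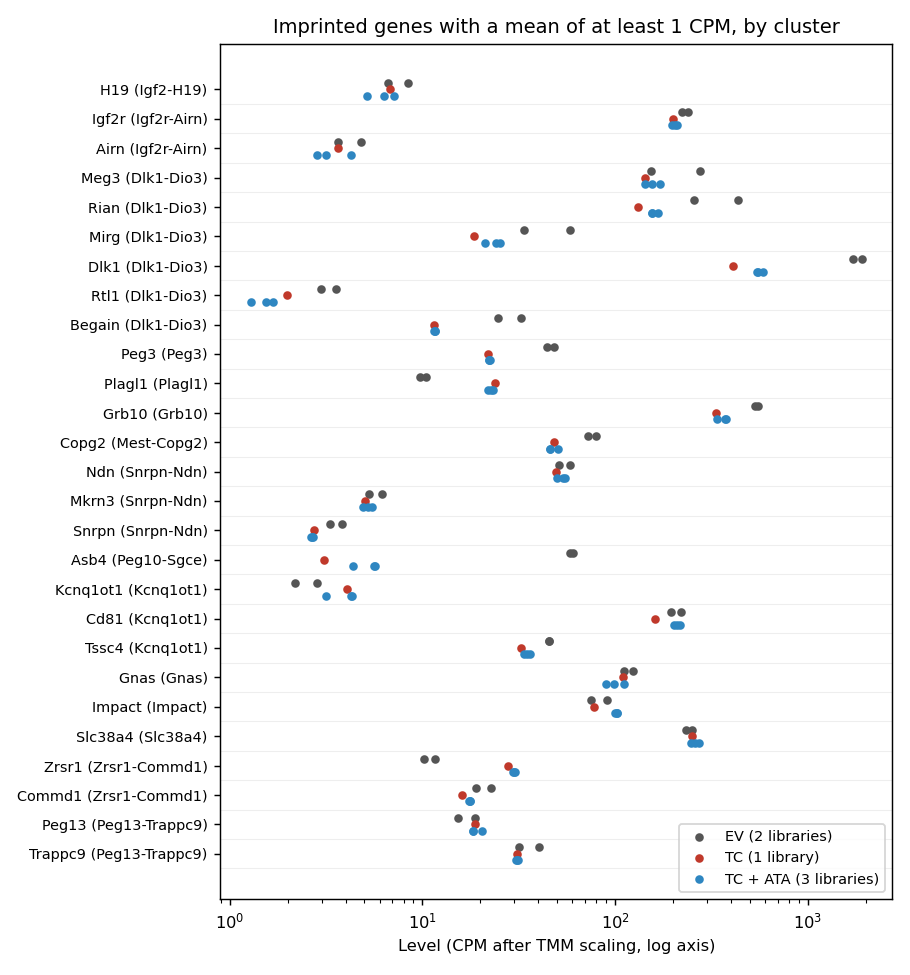
Level of the 27 imprinted genes with a mean of at least 1 CPM (log axis, CPM after TMM scaling), with 1 point per library and the cluster in parentheses. Dlk1 lies at 1710 and 1910 CPM in EV and at 409 to 585 CPM in the 4 libraries that carry the fusion, and Asb4 at 58.1 and 60.2 CPM against 3.08 to 5.71 CPM.

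Taking all 43 genes as a sum, they made up 0.426% and 0.467% of the counts in EV, 0.208% in TC and 0.24% to 0.245% in TC + ATA. Both EV libraries thus stood above the 4 libraries with the fusion. Dlk1 by itself supplied 45% and 39.7% of these counts in EV, 19.1% in TC and 22.2% to 23.5% in TC + ATA. Without Dlk1 the shares were 0.234% and 0.281% in EV, 0.168% in TC and 0.185% to 0.187% in TC + ATA, in the same order.

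**Figure D2:**
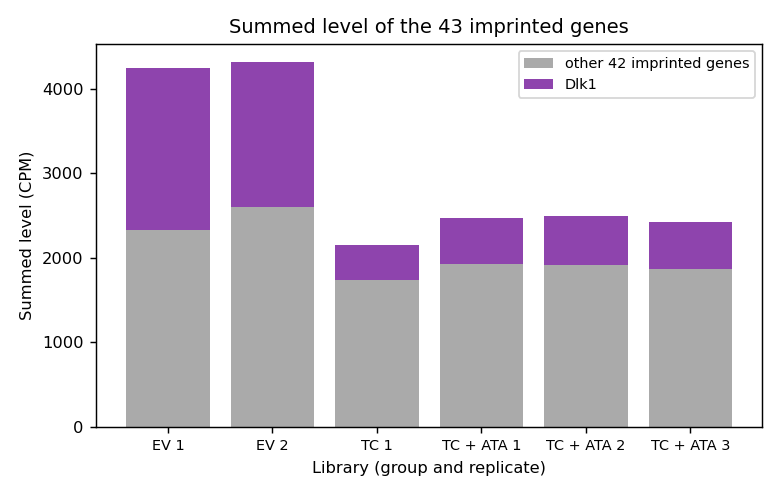
Summed level of the 43 imprinted genes in each library (CPM after TMM scaling, bars from 0), split into Dlk1 and the remaining genes. The sum is 4240 and 4311 CPM in EV, 2145 CPM in TC and 2418 to 2493 CPM in TC + ATA, and both portions are smaller in the libraries with the fusion.

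In TC versus EV, 12 of the 36 tested genes were lower and 2 were higher at an adjusted p of at most 0.05 (edgeR's quasi-likelihood test, Benjamini-Hochberg over all genes). Across all 18539 genes tested, 13.2% were called lower and 14.8% were called higher. The lower genes were Dlk1, Rian, Mirg, Begain, Peg3, Usp29, Grb10, Copg2, Asb4, Ppp1r9a, Cd81 and Tssc4, and the higher genes were Plagl1 and Zrsr1. The median log2 fold change was −0.22 over the 36 genes and −0.026 over all genes tested. With the further limit of an absolute log2 fold change of 2, the lower genes were Dlk1, Asb4 and Ppp1r9a (1.27% of all genes pass this limit downwards), and no gene was higher (2.36%), nor was any at an unadjusted p under 0.05. By the parental copy described for mouse, 8 of 16 maternally expressed genes were lower and none was higher. Of 20 paternally expressed genes 4 were lower and 2 were higher. At an unadjusted p under 0.05, 10 maternally expressed genes were lower and 0 higher, and 5 paternally expressed genes were lower and 3 higher. At that limit 19% of all genes were lower and 19.4% were higher. Which copy these cells express was not measured. The difference between these groups of genes was not tested. Snap25, a neuronal gene and the highest of the 4 neural markers fixed as a check, was at 2.09 and 2.94 CPM in EV and 0.226 to 0.458 CPM in the other libraries. The 4 neural markers summed to 2.19 and 2.96 CPM in EV and 0.296 to 0.581 CPM with the fusion, with Sox10 at 0 in 5 of the 6 libraries, and their part in the result was not tested. Of the 10 fibroblast markers 3 were higher and 1 was lower in TC. The lower marker was Thy1, at 204 and 183 CPM in EV, 69.6 CPM in TC and 79.8 to 86 CPM in TC + ATA (log2 fold change in TC −1.47, SE 0.10, adjusted p = 1.03e-05), and its part was not tested either.

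**Figure D3:**
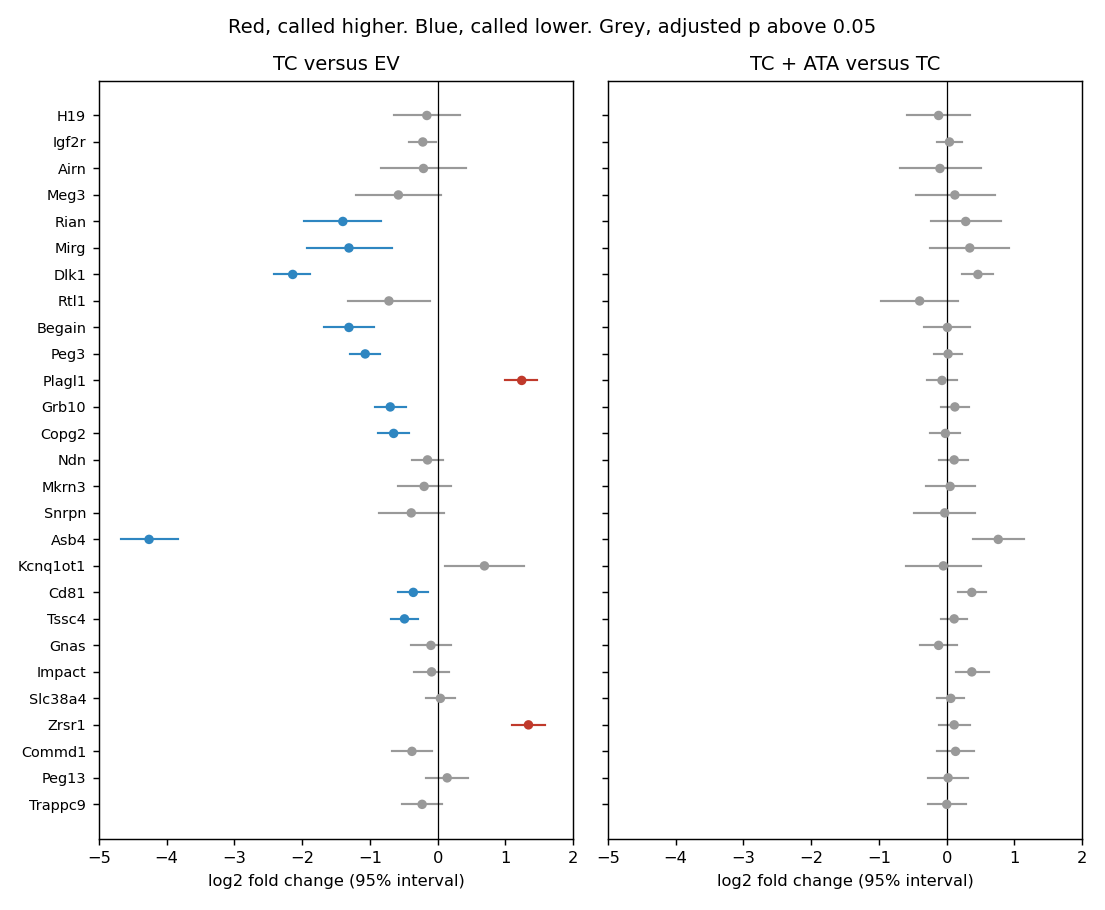
Log2 fold change with its 95% interval for the 27 imprinted genes with a mean of at least 1 CPM. In the left panel (TC versus EV) 10 of these genes are called lower and 2 higher, with Asb4 at −4.26 farthest to the left, and the right panel (ATA-treated against untreated TC cells) has no called gene.

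The Dlk1-Dio3 cluster on chromosome 12 carries protein genes read from the paternal copy and long noncoding RNAs read from the maternal copy. Dlk1 (chr12:109452823-109463336) was at 1910 and 1710 CPM in EV, 409 CPM in TC and 548, 585 and 555 CPM in TC + ATA. No library with the fusion reached the EV range. Its level in TC was 4.42-fold lower than in EV (log2 fold change −2.14, SE 0.12, adjusted p = 2.85e-06). Rian, a maternal noncoding RNA that hosts small nucleolar RNAs, was at 257 and 434 CPM in EV, 131 CPM in TC and 155 to 168 CPM in TC + ATA. It fell by 1.40 on the log2 scale (SE 0.25, adjusted p = 0.0032). Mirg, a maternal noncoding RNA that carries microRNA hairpins, was at 33.7 and 58.4 CPM in EV, 18.6 CPM in TC and 21.2 to 25.4 CPM in TC + ATA, and fell by 1.31 (SE 0.28, adjusted p = 0.0074). Both RNAs were apart from EV in every library with the fusion, although the EV libraries differed from each other 1.69-fold for Rian and 1.73-fold for Mirg. Begain, a gene named for its interaction with a postsynaptic guanylate kinase, was at 24.6 and 32.5 CPM in EV and 11.5 to 11.6 CPM in the 4 other libraries, a decrease of the same size on the log2 scale (−1.31, SE 0.16, adjusted p = 0.000386).

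Meg3, the maternal noncoding RNA next to Dlk1, was at 153 and 276 CPM in EV, 143 CPM in TC and 143 to 171 CPM in TC + ATA. The EV libraries were 1.8-fold apart, and the groups EV and TC + ATA overlapped. Its log2 fold change in TC of −0.58 (95% interval −1.21 to 0.05) did not pass the test (adjusted p = 0.158). Without EV replicate 1, which lay near TC, the log2 fold change was −0.96. A fit without an EV replicate leaves 1 EV library and takes its spread from the TC + ATA libraries. Meg3 was called with no filter on low counts (−0.59, adjusted p = 0.00919) and with only the EV and TC libraries in the fit (−0.58, adjusted p = 0.0303). Rtl1, a retrotransposon-derived gene needed in the placenta, was at 2.98 and 3.58 CPM in EV, 1.99 CPM in TC and 1.29 to 1.68 CPM in TC + ATA. In TC it missed the threshold (log2 fold change −0.72, adjusted p = 0.0789, and −0.86 without EV replicate 1). It was lower in TC + ATA than in EV, where it fell by 1.12 (SE 0.20, adjusted p = 0.00192). MicroRNA hairpins lie on the opposite strand of Rtl1 exons, and whether strand was used in counting is not stated.

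MicroRNAs themselves are not captured by poly(A) selection, and the values above are those of the host RNA. Of 14 microRNA hairpins inside the Mirg gene body, 4 lie wholly inside its exons and so in the RNA that was counted. Their mature sequences from RefSeq are given because they are the part of the Mirg transcript with a known product. The seed, bases 2 to 8, is in capitals.
mmu-miR-134-5p: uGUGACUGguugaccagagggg
mmu-miR-134-3p: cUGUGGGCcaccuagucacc
mmu-miR-485-3p: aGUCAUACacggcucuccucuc
mmu-miR-377-5p: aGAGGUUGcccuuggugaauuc
mmu-miR-377-3p: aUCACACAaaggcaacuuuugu
mmu-miR-410-5p: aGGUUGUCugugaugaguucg
mmu-miR-410-3p: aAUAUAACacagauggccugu

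All 7 seeds differ from each other and from those of the other mature microRNAs in the Mirg gene body.

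Genes around the cluster were called in both directions. Of 32 tested neighbours within 500 kb, 4 (12.5%) were lower and 3 (9.38%) were higher in TC versus EV, beside 13.2% and 14.8% of all genes. Wdr25, 3.7 kb from Begain, was at 6.94 and 8.68 CPM in EV and 6.66 CPM in TC (log2 fold change −0.23, adjusted p = 0.359). Wars, the tryptophanyl-tRNA synthetase gene 138 kb from Begain, is also on the further imprinted list. It was higher at 221 CPM in TC against 132 and 116 CPM in EV (log2 fold change 0.83, SE 0.09, adjusted p = 0.000162). Slc25a47, the third nearest, did not pass the test (0.18, adjusted p = 0.604). Nearest to Dlk1 and Rian, Gm24564, Gm37899 and B830012L14Rik were all under 1 CPM and not called, as were the small RNA genes Mir453, Mir541 and Mir3072 inside Mirg.

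**Figure D4:**
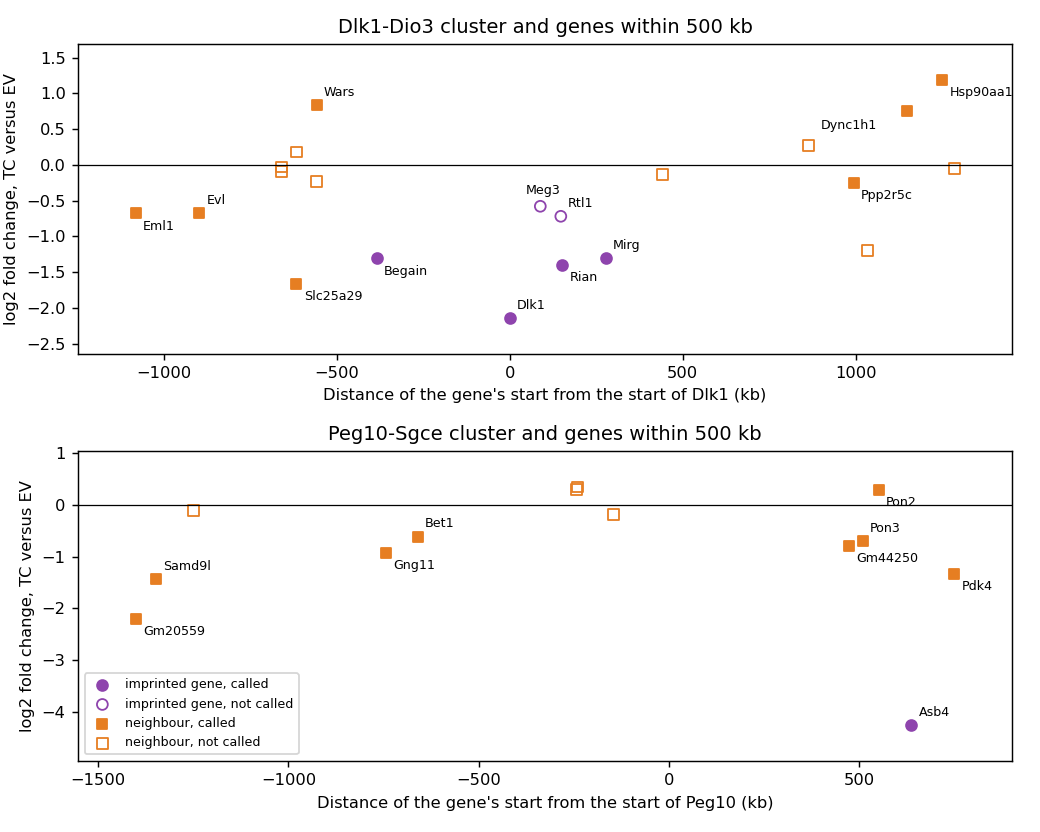
Log2 fold change in TC versus EV against the distance of each gene's start from the start of Dlk1 (top) or of Peg10 (bottom) in kb, for genes with a mean of at least 1 CPM. Circles are imprinted genes of the set, and filled symbols passed the adjusted p limit. Squares are neighbours, genes outside the set within 500 kb of it, some of them on the further imprinted list. All 6 imprinted genes shown around Dlk1 lie at −0.58 or lower, and the neighbours lie on both sides of 0.

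Asb4 had the largest decrease of the genes above 1 CPM. It encodes a substrate-recognition subunit of a ubiquitin ligase and lies in the Peg10-Sgce cluster at chr6:5383386-5433022. Its level was 60.2 and 58.1 CPM in EV, 3.08 CPM in TC and 5.63, 5.71 and 4.39 CPM in TC + ATA. The EV libraries agreed to within 1.04-fold and lay far above the rest. In TC it was 19.2-fold lower than in EV (log2 fold change −4.26, SE 0.18, adjusted p = 1.05e-06). Ppp1r9a, which encodes the actin-binding protein neurabin, was at 0.214 and 0.472 CPM in EV and had no count in TC. Against the limit set by 3 counts in the TC library (0.0432 CPM) it was at least 7.94-fold lower, and in TC + ATA it had at most 3 counts in a library. Its call in TC versus EV rested on these low counts (adjusted p = 0.0129).

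The 2 paternally expressed genes that give the cluster its name were low. Peg10, a retrotransposon-derived gene of the placenta, was at 0.374 and 0.42 CPM in EV, 0.533 CPM in TC and 0.088, 0.0846 and 0.144 CPM in TC + ATA. Sgce, the epsilon-sarcoglycan gene read in the other direction from the same control region, was at 0.508 and 0.262 CPM in EV, 0.346 CPM in TC and 0.127 to 0.141 CPM in TC + ATA. Neither passed the test between TC and EV (log2 fold changes 0.42 and −0.15). Both were lower in TC + ATA than in EV, Peg10 by a log2 fold change of −1.89 (SE 0.49, adjusted p = 0.0152) and Sgce by −1.53 (SE 0.52, adjusted p = 0.0457). The Peg10 call was lost without TC + ATA replicate 2 (−1.74, adjusted p = 0.0591). The Sgce call was lost without EV replicate 1 (−0.99, adjusted p = 0.28) and without TC + ATA replicate 1 (−1.57, adjusted p = 0.0874), 2 (−1.5, adjusted p = 0.12) or 3 (−1.51, adjusted p = 0.116).

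Among 17 tested neighbours of this cluster 8 were lower and 1 was higher in TC versus EV. Of these neighbours, Casd1, Pon2 and Pon3 are also on the further imprinted list. Pdk4, a kinase that shuts off pyruvate dehydrogenase and lies 50.3 kb from Asb4, was at 111 and 117 CPM in EV and 45.3 CPM in TC (log2 fold change −1.33, SE 0.08, adjusted p = 6.92e-06). It was the only 1 of 143 neighbours of all clusters to pass the test in TC + ATA versus TC, where it rose (0.61, adjusted p = 0.0132). Pon3, a paraoxonase gene between Ppp1r9a and Asb4, fell by 0.69 (SE 0.21, adjusted p = 0.0402), whereas its neighbour Pon2 rose by 0.30 (SE 0.10, adjusted p = 0.0498), close to the threshold. Gm44250, 50.6 kb from Ppp1r9a, fell by 0.79 (SE 0.23, adjusted p = 0.0319), and Gm44424, under 1 CPM, was not called. Over the neighbours of all clusters, 25 of 143 (17.5%) were lower and 16 (11.2%) were higher in TC versus EV, beside 13.2% and 14.8% of all genes.

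Of the Peg3 cluster on chromosome 7, a group of zinc finger genes, Peg3 and Usp29 were lower. Peg3, a paternally expressed zinc finger gene known for maternal behaviour and growth, was at 44.3 and 48.4 CPM in EV, 22 CPM in TC and 22.3, 22.1 and 22.5 CPM in TC + ATA. The 4 libraries with the fusion were within 0.5 CPM of each other. Peg3 fell by 1.07 on the log2 scale in TC (SE 0.10, adjusted p = 5.72e-05), 2.11-fold. Usp29, a deubiquitinase gene read from the same start region, was at 1 and 0.997 CPM in EV, 0.303 CPM in TC and 0.155 to 0.282 CPM in TC + ATA. It fell by 1.72 (SE 0.54, adjusted p = 0.0426), a call lost without EV replicate 1 (−1.73, adjusted p = 0.0573), EV replicate 2 (−1.72, adjusted p = 0.0573) or TC + ATA replicate 3 (−1.72, adjusted p = 0.073). Usp29 shares 2582 exon bases with Zim3 on the other strand. Zim1, the maternally expressed gene of the cluster, was at 0.0575 to 0.236 CPM and was not called. Of the nearest neighbours, Zfp954 was lower in TC (log2 fold change −0.75, SE 0.15, adjusted p = 0.00644) and Zfp28 was not called (−0.18, adjusted p = 0.481), while Smim17, Gm16306, Gm6828 and Gm44697 were under 1 CPM and not called.

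Smaller decreases were seen in 4 genes described as maternally expressed. Grb10, an adaptor that dampens insulin and IGF receptor signalling, was at 531 and 549 CPM in EV, 333 CPM in TC and 337 to 375 CPM in TC + ATA (log2 fold change in TC −0.70, SE 0.10, adjusted p = 0.000894). Copg2, a subunit of the COPI vesicle coat, was at 79.8 and 72.1 CPM in EV, 48.3 CPM in TC and 45.8 to 50.5 CPM in TC + ATA (−0.65, SE 0.10, adjusted p = 0.00139). Tssc4 was at 45.6 CPM in both EV libraries, 32.5 CPM in TC and 33.9 to 36.4 CPM in TC + ATA (−0.49, SE 0.09, adjusted p = 0.00321). In these 3 genes the EV libraries lay above all others. Cd81, a tetraspanin of the cell surface, was at 221 and 196 CPM in EV, 162 CPM in TC and 217, 210 and 202 CPM in TC + ATA, so that EV and TC + ATA overlapped and TC lay below both. Its log2 fold change in TC of −0.36 (SE 0.10, adjusted p = 0.0224) was no longer called without TC + ATA replicate 1 (−0.36, adjusted p = 0.0544), 2 (−0.36, adjusted p = 0.0672) or 3 (−0.36, adjusted p = 0.0555). Copg2 shares 912 exon bases with Mest on the other strand, and Mest, a hydrolase-like gene of mesoderm, was at 0.38 to 0.875 CPM and not called. Tssc4 shares 220 exon bases with Trpm5.

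Plagl1 and Zrsr1 rose. Plagl1, a zinc finger factor that restrains cell growth, was at 9.73 and 10.5 CPM in EV, 23.8 CPM in TC and 23.4, 21.8 and 22.8 CPM in TC + ATA. Every library with the fusion was above both EV libraries. The increase in TC was 2.35-fold (log2 fold change 1.24, SE 0.10, adjusted p = 3.31e-05). Zrsr1, a paternally expressed gene for a U2AF-related splicing factor that sits inside an intron of Commd1, was at 10.2 and 11.6 CPM in EV, 27.7 CPM in TC and 30.3, 29.5 and 29.9 CPM in TC + ATA. It was 2.53-fold higher in TC (log2 fold change 1.34, SE 0.10, adjusted p = 2.19e-05). Commd1, the maternally expressed host gene of the COMMD family, was at 22.8 and 19 CPM in EV, 16 CPM in TC and 17.5 to 17.7 CPM in TC + ATA. It missed the threshold (−0.38, adjusted p = 0.0523, and −0.51 without EV replicate 2). It was called with library size scaling (−0.49, adjusted p = 0.0159), upper quartile scaling (−0.39, adjusted p = 0.0491) and no filter (−0.39, adjusted p = 0.0324). The genes share 412 exon bases on opposite strands. Of the nearest neighbours, Cct4, 14 kb from Zrsr1, was not called (0.09, adjusted p = 0.582), Fam161a was lower (−1.89, SE 0.53, adjusted p = 0.0279) and Gm12059 was not called.

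The remaining genes above 5 CPM did not pass the test in TC versus EV. Igf2r, the receptor that clears IGF2, was at 240 and 223 CPM in EV, 199 CPM in TC and 197 to 210 CPM in TC + ATA. Its log2 fold change in TC was −0.22 (adjusted p = 0.098). Without EV replicate 1 or 2 it was −0.18 or −0.28, in fits that leave 1 EV library. Igf2r was called with library size scaling (−0.33, adjusted p = 0.00907). Slc38a4, an amino acid transporter, was at 233 to 273 CPM in all libraries (0.04, 95% interval −0.17 to 0.26). Gnas, the gene of the stimulatory G protein alpha subunit, was at 124 and 111 CPM in EV, 110 CPM in TC and 89.9 to 112 CPM in TC + ATA, with exons shared with the antisense RNA Nespas. Impact, a regulator of the GCN2 kinase, was at 74.7 and 91.3 CPM in EV, 78.2 CPM in TC and 99.4 to 103 CPM in TC + ATA. Its log2 fold change in TC was −0.09, with −0.24 without EV replicate 1 and 0.06 without EV replicate 2. Ndn, which encodes the growth suppressor necdin, was at 49.2 to 58.2 CPM in all libraries (−0.15, 95% interval −0.38 to 0.08, and −0.24 without EV replicate 2). Mkrn3, a ring finger gene known for its role in the timing of puberty, was at 4.95 to 6.19 CPM, and the noncoding RNA Peg13 was at 15.3 to 20.3 CPM. Trappc9, a subunit of a vesicle tethering complex that hosts Peg13, was at 40.5 and 31.9 CPM in EV and 30.6 to 31.2 CPM in the other libraries. Its log2 fold change in TC was −0.23 (adjusted p = 0.243), and −0.39 without EV replicate 2. H19 changed by −0.16 (95% interval −0.65 to 0.33).

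Low genes completed the set. Airn, the antisense RNA that silences Igf2r on the paternal copy, was at 2.85 to 4.83 CPM, and Snrpn, a small nuclear ribonucleoprotein gene, at 2.64 to 3.84 CPM. Snrpn shares 589 of its 2159 exon bases with Gm38393 on the same strand. Kcnq1ot1, the noncoding RNA of its cluster, was at 2.18 and 2.85 CPM in EV, 4.05 CPM in TC and 3.17 to 4.33 CPM in TC + ATA. It missed the threshold in TC (log2 fold change 0.69, adjusted p = 0.0774, and 0.89 without EV replicate 2). With no filter on low counts it was called (0.68, adjusted p = 0.0449). Nnat, a small membrane protein of the developing brain, was at 0.147 to 0.504 CPM, and Cdkn1c, a cell cycle inhibitor, at 0.0525 to 0.169 CPM, and neither these nor Igf2, Airn and Snrpn were called in TC versus EV. The 3 genes nearest to Igf2 (Igf2os, Gm7290 and Nctc1) were not called either, with log2 fold changes of −1.15, 0.1 and 0.13.

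Under ATA, edgeR's quasi-likelihood test called none of the 36 genes in either direction (TC + ATA versus TC), where 0.426% of all genes were called higher and 0.156% lower. Taken without adjustment, p was under 0.05 for Dlk1, Asb4, Cd81 and Impact, which were higher, and for Peg10, which was lower. These are 4 and 1 of 36 genes, where 5.65% of all genes were higher and 3.95% lower at that limit. The log2 fold change of Dlk1 was 0.46 (SE 0.10, 95% interval 0.23 to 0.69, adjusted p = 0.11), and all 3 treated libraries lay above TC. For Asb4 it was 0.76 (SE 0.17, 95% interval 0.39 to 1.14, adjusted p = 0.109), again with all 3 above TC. Cd81 had 0.37 (SE 0.09, adjusted p = 0.165) and Impact also 0.37 (SE 0.11, adjusted p = 0.258). For Peg10 the value was −2.31 (SE 0.57, adjusted p = 0.159), with all 3 treated libraries below TC. DESeq2 gave an adjusted p to 30 of the 36 genes, and called 1.6% of all genes higher and 0.578% lower. It called Dlk1 (adjusted p = 0.000498), Asb4 (adjusted p = 0.00275) and Cd81 (adjusted p = 0.0226) higher and none of the 30 lower. The edgeR fit without the EV libraries called Dlk1, Asb4, Cd81, Impact and Rian higher, where 4.42% of all genes were called higher. Without EV replicate 1 the log2 fold changes were 0.46 (Dlk1), 0.76 (Asb4), 0.37 (Cd81 and Impact), 0.28 (Rian) and −2.31 (Peg10). Without EV replicate 2 they were 0.47 (Dlk1), 0.77 (Asb4), 0.38 (Cd81), 0.39 (Impact) and 0.3 (Rian). In each of these fits the spread came from the 3 TC + ATA libraries only, and TC still had 1 library.

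The median log2 fold change of the 36 genes was 0.02 in this comparison, against 0.003 over all genes tested. Over the 27 genes with a mean of at least 1 CPM, the values ran from −0.40 (Rtl1) to 0.76 (Asb4). Below 1 CPM the intervals were wide, as for Sgce (−1.38, 95% interval −2.81 to 0.06), and Ppp1r9a had 0 counts in TC and at most 3 in a treated library, so no fold is given. Peg3 (0.02, 95% interval −0.19 to 0.22), Begain (0.01, 95% interval −0.33 to 0.35), Plagl1 (−0.07, 95% interval −0.29 to 0.15) and Zrsr1 (0.11, 95% interval −0.11 to 0.34) had narrow intervals around 0. Grb10 (0.12, 95% interval −0.09 to 0.33) and Copg2 (−0.02, 95% interval −0.24 to 0.19) did too, while those of Rian (0.28, 95% interval −0.23 to 0.80), Mirg (0.34, 95% interval −0.24 to 0.92) and Meg3 (0.12, 95% interval −0.46 to 0.71) were wider. Both comparisons with TC rest on the same TC library, on opposite sides, so their values for a gene are not independent of each other.

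TC + ATA versus EV does not use the TC library. Its groups differ in both the fusion and ATA, so the effects of the 2 cannot be told apart in it. Here 14 of the 36 genes were lower and 4 were higher, where 18.6% of all genes were called lower and 18% higher. Dlk1 was 3.22-fold lower (log2 fold change −1.69, SE 0.08, adjusted p = 5.76e-07) and Asb4 11.3-fold lower (−3.50, SE 0.11, adjusted p = 1.17e-07). Rian (−1.11, SE 0.17, adjusted p = 0.001), Mirg (−0.97, SE 0.19, adjusted p = 0.00392), Begain (−1.30, SE 0.11, adjusted p = 2.86e-05) and Rtl1 made up the rest of the Dlk1-Dio3 cluster that was called. Meg3 was not called (−0.46, adjusted p = 0.106). Its log2 fold change was −0.84 without EV replicate 1 and 0.04 without EV replicate 2. Peg3 (−1.06, adjusted p = 4.81e-06), Usp29 (−2.08, adjusted p = 0.00245), Grb10 (−0.58, adjusted p = 0.00026), Copg2 (−0.68, adjusted p = 0.000107) and Tssc4 (−0.38, adjusted p = 0.00163) were lower, and Ppp1r9a, Peg10 and Sgce at their low levels as well. The Ppp1r9a call was lost without EV replicate 2 (log2 fold change −2.33, adjusted p = 0.0936). Cd81 did not differ beyond its spread (0.01, 95% interval −0.15 to 0.17).

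The genes higher in TC + ATA than in EV were Plagl1 (log2 fold change 1.17, SE 0.08, adjusted p = 7.62e-06), Zrsr1 (1.45, SE 0.08, adjusted p = 2.28e-06), Kcnq1ot1 (0.64, SE 0.20, adjusted p = 0.0325) and Impact (0.29, SE 0.09, adjusted p = 0.027). The call of Kcnq1ot1 was lost without EV replicate 1 (0.45, adjusted p = 0.116), TC + ATA replicate 1 (0.58, adjusted p = 0.0979) or TC + ATA replicate 3 (0.56, adjusted p = 0.118). That of Impact was lost without TC + ATA replicate 1 (0.29, adjusted p = 0.0809), 2 (0.30, adjusted p = 0.0717) or 3 (0.28, adjusted p = 0.102). The median log2 fold change was −0.30 over the 36 genes and −0.011 over all genes tested.

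Genes that set, keep or remove imprints were looked at as a list of 27, of which 25 were tested. In TC versus EV 3 (12%) were higher and 1 (4%) was lower, beside 14.8% and 13.2% of all genes, so neither share was above the background. Zfp57, a zinc finger protein that guards methylated imprinting control regions, was at 67.1 and 111 CPM in EV, 202 CPM in TC and 174 to 204 CPM in TC + ATA, a log2 fold change in TC of 1.18 (SE 0.23, adjusted p = 0.00454). Zfp568, a repressor that acts on a placental Igf2 promoter, was at 19.9 and 23 CPM in EV and 31.5 to 33.7 CPM in the other libraries (0.65, SE 0.11, adjusted p = 0.00178). Dnmt1, the maintenance DNA methyltransferase, was at 227 and 222 CPM in EV, 297 CPM in TC and 256 to 259 CPM in TC + ATA (0.40, SE 0.08, adjusted p = 0.00443). Tet1, which oxidises methylated cytosine, was at 6.11 and 7.7 CPM in EV, 3.33 CPM in TC and 3.57 to 4.26 CPM in TC + ATA, and fell by 1.05 (SE 0.21, adjusted p = 0.00529). Uhrf1, the partner of Dnmt1, and Trim28, the partner of Zfp57, were not called (log2 fold changes −0.02 and 0). Between TC + ATA and TC none of the 25 was called by edgeR or DESeq2. At an unadjusted edgeR p under 0.05, 3 (Dnmt1, Uhrf1 and Smchd1) were lower, beside 3.95% of all genes. DNA methylation was not measured.

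A further list held 48 genes described as imprinted in some mouse tissue or lying in imprinted domains. Some of them, such as Wars, Tnfrsf23, Osbpl5 and Dhcr7, were also counted among the neighbours above. Of 33 tested, 10 (30.3%) were higher and 4 (12.1%) were lower in TC versus EV, beside 14.8% and 13.2% of all genes. Tnfrsf23, a decoy receptor for TRAIL at the edge of the Kcnq1ot1 cluster, rose from 13.4 and 11.3 CPM in EV to 60.8 CPM in TC (log2 fold change 2.30, SE 0.12, adjusted p = 2.2e-06). Phactr2, an actin-binding regulator of protein phosphatase 1 near Plagl1, rose from 2.02 and 2.01 CPM to 8.31 CPM (2.05, SE 0.14, adjusted p = 1.2e-05), and the survival gene Bcl2l1 from 89.1 and 78.9 CPM to 208 CPM (1.31, SE 0.10, adjusted p = 1.58e-05). Smoc1, a secreted calcium-binding protein, fell from 3.34 and 3.66 CPM to 0.461 CPM (−2.92, SE 0.40, adjusted p = 0.000681), and Dcn, the collagen-binding proteoglycan decorin, from 19.5 and 21.9 CPM to 4.91 CPM (−2.07, SE 0.15, adjusted p = 1.39e-05). Between TC + ATA and TC edgeR called none of the 33, DESeq2 called 1 higher, and 2 were higher and 2 lower at an unadjusted p under 0.05 (5.65% and 3.95% of all genes). The difference between the 2 lists was not tested.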

How the data were processed

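Poly(A)-selected RNA-Seq libraries of NIH3T3 cells were analysed (2 EV, 1 TC and 3 TC + ATA, grouped by the sample labels). The authors aligned paired-end reads to GRCm38.p6 with HISAT2 (2.2.1 in the submitters' processing notes) and counted them with featureCounts. Raw whole-number counts per gene were deposited, without normalization. The annotation release and the use of strand are not given in the sources used here, so overlapping genes can share reads.

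Of 55401 genes, 55141 had a symbol in GENCODE M21 (GRCm38), which also gave coordinates and exon lengths. Groups were compared with edgeR 4.0.16 in R 4.3.3 (TMM, filterByExpr, glmQLFit, glmQLFTest, all 6 libraries, 3 residual degrees of freedom, Benjamini-Hochberg over 18539 genes), after a check on simulated data. DESeq2 1.42.0 was an alternative. Other alternatives were library size and upper quartile scaling, no filter or 1 CPM in 2 libraries, only the groups compared, a replicate block and each replicate left out. Intervals come from the fit. The median library total was 71053010, and 3 counts set the smallest level shown. TC has 1 library, so comparisons with it lack a replicate check on that side.

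Genes named are those called in any comparison or with at least 5 CPM, and the others by range. From the other lists the up to 5 largest changes called above 1 CPM, and the up to 3 neighbours nearest to a gene with an absolute log2 fold change of at least 1, are named. Trim28, Uhrf1, Smchd1, Snap25, Sox10, Ckm, Des and Ptprc were added after their values were seen. The imprinted genes and lists were chosen with earlier results of these data known.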

Additional observations from a re-analysis of the deposited data

How the results depend on the processing

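TC has 1 library, and genes under 1 CPM rest on few counts, which limits what these comparisons can show. In TC versus EV the 12 lower genes became 9 with the replicate block, 14 with library size scaling, 14 with no filter and 10 to 15 with each replicate left out, and the 2 higher genes became 2 to 3. In TC + ATA versus TC the 0 higher genes became 3 with DESeq2, 1 with library size scaling, 3 with no filter, 5 with only the groups compared and 0 to 5 with each replicate left out, and the 0 lower genes became 0 to 1. In TC + ATA versus EV the 4 higher genes became 2 with library size scaling, 2 with the block and 2 to 5 with each replicate left out. The 14 lower genes became 11 with the block, 11 with at least 1 CPM in 2 libraries, 19 with library size scaling, 19 with no filter and 13 to 18 with each replicate left out. Of the other lists, DESeq2 called 1 other imprinted gene higher in TC + ATA versus TC. With the block 1 regulator (3 without it) was lower in TC + ATA versus EV, and 16 neighbours (25 without it) were lower in TC versus EV, 0 (1 without it) higher in TC + ATA versus TC and 19 (29 without it) lower in TC + ATA versus EV. The neighbours' alternatives were chosen after seeing the data. The share of all genes called moved as well. For TC versus EV, 13.2% were lower, 7.91% with the block, 17% with library size scaling and 9.67% with no filter. For TC + ATA versus TC, 0.426% were higher, 1.6% with DESeq2, 0.388% with library size scaling, 0.847% with no filter and 4.42% with only the groups compared. That share also rose in the fits that left out an EV replicate. For TC + ATA versus EV, 18.6% were lower, 11.8% with the block, 23.6% with library size scaling and 13.2% with no filter. The cause of these shifts was not tested. A fit without a replicate of EV assumes that the remaining EV library varies like the other groups.

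The labels number replicates 1 and 2 in both EV and TC + ATA. The deviations of same-numbered libraries correlated at −0.0161 and −0.164, and those of EV replicate 1 and TC + ATA replicate 2 at 0.164. The 2 EV libraries deviate from their mean as mirror images, so these values cannot show whether libraries were paired. The replicate block ended the calls of Usp29 (log2 fold change −1.90, adjusted p = 0.109), Cd81 (−0.42, adjusted p = 0.0721) and Ppp1r9a (adjusted p = 0.0646) in TC versus EV, and of Peg10, Sgce, Ppp1r9a, Kcnq1ot1 and Impact in TC + ATA versus EV (adjusted p = 0.053 to 0.188). DESeq2 ended those of Usp29 (adjusted p = 0.067) in TC versus EV and Sgce (adjusted p = 0.118) in TC + ATA versus EV, library size scaling those of Kcnq1ot1 (0.0769) and Impact (0.189) in TC + ATA versus EV, and only the groups compared that of Cd81 (0.21) in TC versus EV. Dlk1, Asb4, Rian, Mirg, Begain, Peg3, Grb10, Copg2, Tssc4, Plagl1 and Zrsr1 were called in TC versus EV under all 12 alternatives, with ranges of −2.25 to −2.08 for Dlk1, −4.37 to −4.24 for Asb4 and −1.66 to −0.86 for Mirg.

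Library size scaling moved the median log2 fold change of all genes in TC versus EV from −0.026 to −0.134 and the split of all calls from 2735 higher and 2456 lower to 2072 and 3159, and in TC + ATA versus EV from 3340 and 3449 to 2711 and 4384. The summed level of the 43 genes became 4465 CPM in EV (4275 with TMM), 2078 CPM in TC (2145) and 2417 CPM in TC + ATA (2460).

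Directions that turned were all of genes not called in that comparison. With a replicate left out, the lowest and highest log2 fold changes in TC versus EV were −0.32 and 0.01 for H19, −0.41 and 0.01 for Airn, −0.55 and 0.38 for Sgce, −0.06 and 1.1 for Cdkn1c, −0.24 and 0.06 for Impact and −0.02 and 0.09 for Slc38a4, which was −0.06 with library size scaling. In TC + ATA versus TC they were −0.84 and 0.03 for Igf2, −0.28 and 0.02 for Airn, −0.16 and 0.04 for Mest, −0.12 and 0.09 for Kcnq1ot1 and −0.03 and 0.05 for Peg13, and with the block H19 (0.04), Meg3 (−0.11), Begain (−0.09), Peg3 (−0.02), Mest (0.13) and Mkrn3 (−0.02) turned. In TC + ATA versus EV they were −0.84 and 0.04 for Meg3, −0.12 and 0.03 for Ndn, −0.18 and 1.59 for Nnat and −0.07 and 0.08 for Cd81, which was −0.08 with library size scaling. The turned values were those without EV replicate 1 for H19, Sgce, Ndn and Nnat, without EV replicate 2 for Airn (TC versus EV), Cdkn1c, Impact, Slc38a4 and Meg3, without TC + ATA replicate 1 for Mest and without TC + ATA replicate 2 for Igf2, Airn (TC + ATA versus TC), Kcnq1ot1 and Peg13, with Cd81 turned without EV replicate 2 (−0.07) and TC + ATA replicate 1 (−0.02).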
